A study of Mus musculus with 18 samples.

Results

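The Hippo pathway genes Yap1, Wwtr1, Tead1, Lats2 and Amotl2 and the YAP target genes Ankrd1, Ccn1 and Ccn2 are described here across mouse mammary cell cultures. The 8 genes were chosen by symbol, and they are 8 of the 19938 genes measured on a gene expression array. Tead1 has 2 probe sets that name it alone, of which the one with the higher mean over all 18 arrays was used, and each of the other members has 1. Values are the deposited log2 array signals, called levels below, and a difference of 1 on that scale is a doubling of the linear signal. There were 6 groups of 3 arrays. Comma-D cells, a mouse mammary epithelial line labelled normal and erbB2-negative, were cultured alone in their own low-serum medium with insulin and EGF. MMTV-neu cells, a mouse mammary tumour line labelled cancer, erbB2-positive and P-erbB2-positive, were cultured alone in another medium with more serum. In MMTV-neu mice the MMTV promoter drives the neu oncogene in mammary epithelium. The other 4 groups were co-cultures of both lines in Comma-D medium, set up at a ratio written 1:50 or 1:1 (the titles attach the 1 to Comma-D, and which line the 50 counts is not taken as settled here) and separated with an antibody to erbB2 and magnetic beads into an erbB2-positive and an erbB2-negative fraction. Both negative fractions were labelled normal, the 1:1 positive fraction was labelled cancer and P-erbB2-positive, and the 1:50 positive fraction was labelled redirected, erbB2-positive and P-erbB2-negative. The series carries the title term tumour cell redirection, so the comparisons ask how the pathway stood in the 1:50 positive fraction against MMTV-neu cells alone, Comma-D cells alone and the 1:1 positive fraction. The study used 1 line of each kind, and nothing in the labels says that the arrays of a group came from separate cultures, so the p-values measure only the spread between these arrays.

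YAP (Yap1) and its relative TAZ (Wwtr1) are coactivators that enter the nucleus and act through TEAD transcription factors such as TEAD1. The Hippo kinases LATS1 and LATS2 phosphorylate both proteins and hold them in the cytoplasm, and AMOTL2, a junction-associated angiomotin protein, also binds YAP and restrains it. CCN1 and CCN2 (also named CYR61 and CTGF, secreted matrix proteins) and ANKRD1 (an ankyrin repeat protein of muscle and nucleus) are widely used transcript readouts of YAP and TEAD activity, and Lats2 and Amotl2 are themselves targets in a feedback loop. In mammary epithelium YAP and TAZ respond to matrix stiffness, cell density and cell shape. An array measures RNA only, so it shows neither where YAP was in the cell nor its phosphorylation.

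The sequences are shown because TEAD factors bind the hexamer GGAATG, and the 250 bases upstream of each annotated transcript start were searched for it. RefSeq promoter entries on GRCm38.p6 were found for 6 members (Yap1, Wwtr1, Lats2, Amotl2, Ankrd1 and Ccn1). They have 8 windows, since Wwtr1 and Lats2 have 2 each. On either strand, GGAATG was present in 6 of the 8, all but those of Lats2, against 12.6% of all 32851 promoter windows of the same length, and the overlapping Wwtr1 windows hold the same match. The windows of the target genes Ccn1 (chr3:145649986-145650235, minus strand) and Ankrd1 (chr19:36119845-36120094, minus strand) are printed whole, 5′ to 3′ toward the gene, with GGAATG or its reverse complement CATTCC in capitals. For Yap1, Wwtr1 and Amotl2 the match is printed with a short flank on each side.
Ccn1: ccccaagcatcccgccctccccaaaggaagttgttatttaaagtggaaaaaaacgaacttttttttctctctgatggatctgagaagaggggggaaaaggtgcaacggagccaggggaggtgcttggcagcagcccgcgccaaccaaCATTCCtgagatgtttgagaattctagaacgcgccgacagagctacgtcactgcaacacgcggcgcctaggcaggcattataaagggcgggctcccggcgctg
Ankrd1: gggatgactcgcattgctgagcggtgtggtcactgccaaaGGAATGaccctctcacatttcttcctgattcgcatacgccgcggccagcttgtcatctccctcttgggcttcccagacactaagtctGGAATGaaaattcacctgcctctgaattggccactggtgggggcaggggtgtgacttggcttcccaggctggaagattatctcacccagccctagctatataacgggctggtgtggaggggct
Yap1: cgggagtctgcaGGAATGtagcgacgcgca
Wwtr1: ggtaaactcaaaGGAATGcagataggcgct
Amotl2: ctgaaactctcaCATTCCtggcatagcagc
The first base of the match lies 103 bases upstream of the window's transcript start for Ccn1, 210 and 123 for the 2 matches of Ankrd1, 141 for Yap1 (chr9:8004732-8004737), 136 for Wwtr1 (chr3:57576041-57576046) and 65 for Amotl2 (chr9:102717739-102717744). The Amotl2 window belongs to a transcript start inside the gene, so its match lies within the gene's span and not upstream of it. The AP-1 motif TGANTCA was in none of the 8 windows of these members, against 6.75% of all windows, and a CArG box was also in none, against 1.47%. A match of letters is a description and not a binding site, and no match says only that those letters are not in this window. On the same build the genes of the 8 members span chr9:7931999-8004638 (Yap1), chr3:57455644-57575910 (Wwtr1), chr7:112679356-112906784 (Tead1), chr14:57689662-57746212 (Lats2), chr9:102717091-102733418 (Amotl2), chr19:36111965-36119844 (Ankrd1), chr3:145646971-145649985 (Ccn1) and chr10:24595442-24598683 (Ccn2).

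The arrays were not alike in scale, and this touches every comparison with MMTV-neu or the 1:1 positive fraction. The SD of the values of all 35556 probe sets within an array was 1.97 to 1.99 in Comma-D and 1.51 to 1.55 in MMTV-neu. Actb, the cytoplasmic actin gene, had a mean level of 13.30 in Comma-D and 9.36 in MMTV-neu, and the mean of 10 housekeeping genes measured as references differed by -1.46 in MMTV-neu. In that comparison the 4985 genes of highest Comma-D level, to which all 8 members belong, had a median difference of -1.37, with quartiles of -2.17 and -0.62. Each difference below was therefore recomputed after shifting every array to the same reference gene mean ("centred") and after quantile normalization, which gives all arrays the same distribution, and the members that kept their call in all 3 are named. Centring moved the median of all genes by 1.46 for MMTV-neu minus Comma-D and by -1.22 for the 1:50 positive fraction minus MMTV-neu. Markers that differed between the lines did not split cleanly between the fractions. Of 8 luminal epithelial markers, 4 were called higher in MMTV-neu than in Comma-D (Krt8, Krt19, Foxa1 and Elf5) and 4 lower (Krt18, Epcam, Cdh1 and Gata3), so the list mean hardly differed (8.03 to 8.18 on the Comma-D and 8.14 to 8.29 on the MMTV-neu arrays). Krt8, the luminal keratin that differed most between the lines, had mean levels of 7.41 for Comma-D, 11.34 for MMTV-neu and 10.76 for the 1:1 negative fraction, and Epcam, an epithelial adhesion gene, 9.53, 5.88 and 7.66. Vim, the gene of the filament protein vimentin, had mean levels of 12.93 for Comma-D, 8.13 for MMTV-neu and 11.83 for the 1:1 positive fraction. The probe set for mouse Erbb2 did not separate the lines (mean level 8.20 in Comma-D and 8.06 in MMTV-neu, limma adjusted p = 0.18), so it does not check the sort. Of other cell types, 2 of 6 leukocyte markers (Cd68 and Cd3e) were above the array median in every group, 0 to 2 of 5 endothelial markers and 5 or 6 of 8 fibroblast markers. In bulk RNA, fewer cells of a type and less RNA per cell cannot be told apart.

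On the deposited scale, the coactivator genes Yap1 and Wwtr1 were highest in Comma-D and the 1:50 fractions. They were lowest in MMTV-neu and the 1:1 positive fraction. For both genes the direction between the lines turned around when the arrays were centred. Yap1 read 9.12, 9.07 and 9.24 on the Comma-D arrays and 8.27, 8.15 and 8.24 on the MMTV-neu arrays. In the 1:50 co-culture it read 9.11, 8.97 and 8.91 in the negative and 8.67, 8.95 and 8.99 in the positive fraction, and in the 1:1 co-culture 8.41, 8.60 and 8.79 in the negative and 8.33, 8.05 and 7.92 in the positive fraction. Every Comma-D array was above every MMTV-neu and every 1:1 positive array, while the MMTV-neu and 1:1 positive arrays overlapped. Of all genes, 87.2% had no overlap between Comma-D and MMTV-neu and 85.1% none between Comma-D and the 1:1 positive fraction. The order of the Yap1 means was Comma-D, 1:50 negative, 1:50 positive, 1:1 negative, MMTV-neu and 1:1 positive, and of its 5 neighbouring pairs only 1:1 negative and MMTV-neu differed (0.38, adjusted p = 0.0098), where 21.3% of genes were called higher in the negative fraction and 56.7% lower. Wwtr1 read 9.03, 9.03 and 9.29 in Comma-D and 7.59, 7.86 and 7.91 in MMTV-neu. Its 1:50 values were 9.16, 8.9997 and 8.93 in the negative and 8.57, 9.002 and 8.72 in the positive fraction, and its 1:1 values 8.48, 8.89 and 8.82 and then 8.28, 8.004 and 8.07. The Wwtr1 order was the same except that MMTV-neu came last, and only the 1:1 negative and 1:1 positive neighbours differed (0.61, adjusted p = 0.0023).

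Tead1, which encodes the DNA-binding partner, was lowest in MMTV-neu as deposited and stood higher in the 1:1 positive fraction. Its direction between the lines also turned around when centred. Its levels were 9.79, 9.64 and 9.76 for Comma-D, 8.32, 8.68 and 8.30 for MMTV-neu and 9.04, 9.19 and 9.14 for the 1:1 positive fraction. The 1:50 arrays read 9.88, 9.87 and 9.82 in the negative and 9.48, 9.87 and 9.71 in the positive fraction, and the 1:1 negative arrays 9.30, 9.82 and 9.71. The first 4 groups in the order (1:50 negative, Comma-D, 1:50 positive and 1:1 negative) had no neighbours that differed, and the steps down to the 1:1 positive fraction (0.49, adjusted p = 0.0075) and on to MMTV-neu (0.69, adjusted p = 0.0036) were called. The other Tead1 probe set had the same lowest groups with a wider spread, at 9.80 ± 0.05 in Comma-D, 7.71 ± 0.31 in the 1:1 positive fraction and 6.98 ± 0.16 in MMTV-neu (SD, n = 3).

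Lats2, the inhibitory kinase gene, split the groups more widely than the coactivators did. It read 8.89, 8.87 and 9.10 for Comma-D, 7.30, 7.40 and 7.29 for MMTV-neu and 7.09, 7.33 and 7.57 for the 1:1 positive fraction. The 1:50 values were 8.93, 8.90 and 8.69 in the negative and 8.52, 8.84 and 8.57 in the positive fraction, and the 1:1 negative values 8.06, 8.35 and 8.40. The MMTV-neu and 1:1 positive arrays lay together below all the others, and among neighbours in the order only the step from 1:1 negative to MMTV-neu was called (0.94, adjusted p = 1.6e-05). Of all genes, 87.2% had no overlap between Comma-D and MMTV-neu and 78.7% none between the positive fractions. Amotl2, the angiomotin family inhibitor, was nearly flat as deposited, with group means within 0.58 of each other. Its arrays read 8.77, 8.61 and 8.82 in Comma-D, 8.87, 8.42 and 8.41 in MMTV-neu, 8.65, 8.49 and 8.25 in the 1:50 negative and 8.35, 8.57 and 8.35 in the 1:50 positive fraction. In the 1:1 co-culture it read 8.18, 8.15 and 8.11 in the negative and 8.24, 8.40 and 8.32 in the positive fraction. No neighbouring groups in its order differed, and the 1:1 negative fraction lay below both lines alone (-0.58 against Comma-D and -0.42 against MMTV-neu, both called), as did 1.23% of genes.

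The target genes Ccn1 and Ccn2 spanned the widest ranges of the members other than Ankrd1. Group means of Ccn1 spanned 3.33 and those of Ccn2 2.51, against 1.63 for Lats2, 1.42 for Tead1, 1.33 for Wwtr1 and 1.04 for Yap1. Those of Ankrd1 spanned a measured 3.32, which is not ranked because its MMTV-neu signal lay near the array median. Ccn1 and Ccn2 stood at the 99.1 and 97.7 percentile of Comma-D levels, and the part of the narrower MMTV-neu range was not tested. Ankrd1 read 9.28, 9.39 and 9.43 in Comma-D and 7.18, 6.72 and 6.12 in MMTV-neu, where the third array lay below its array median of 6.45. In the 1:50 co-culture Ankrd1 read 9.87, 10.03 and 10.08 in the negative and 9.29, 9.96 and 9.78 in the positive fraction. In the 1:1 co-culture it read 7.86, 9.28 and 9.75 in the negative and 7.26, 7.71 and 8.33 in the positive fraction. The 1:1 negative group was therefore scattered (8.97 ± 0.98, SD, n = 3), and its first array alone overlapped the positive fraction. In the Ankrd1 order the 1:50 fractions came first, then Comma-D and the 1:1 negative fraction with no called step, then the 1:1 positive fraction (a gap of 1.198, adjusted p = 0.013) and MMTV-neu (a further gap of 1.09, adjusted p = 0.0496).

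Ccn1 was the one member whose Comma-D arrays lay above every other array. It read 11.37, 11.38 and 11.51 in Comma-D and 7.90, 8.29 and 8.06 in MMTV-neu. The 1:50 values were 10.92, 10.83 and 10.40 in the negative and 10.25, 10.71 and 10.19 in the positive fraction, and the 1:1 values 10.51, 10.80 and 10.59 in the negative and 8.97, 9.11 and 9.35 in the positive fraction. The steps from Comma-D to the 1:50 negative fraction, from the 1:50 positive to the 1:1 positive fraction and from there to MMTV-neu were called, and the 3 fractions in between did not differ as neighbours. Ccn2 had a different top. It read 10.75, 10.65 and 10.73 in Comma-D and 9.06, 8.90 and 8.85 in MMTV-neu, but 11.60, 11.71 and 11.02 in the 1:50 negative and 11.10, 11.59 and 10.88 in the 1:50 positive fraction. Its 1:1 values were 10.75, 11.26 and 10.96 in the negative and 9.45, 9.86 and 9.77 in the positive fraction. All 6 of the 1:50 arrays lay above all 3 Comma-D arrays, although no neighbouring step above Comma-D was called, and the steps down to the 1:1 positive fraction (1.01) and to MMTV-neu (a further 0.76) were. Of all genes, 27.7% had no overlap between Comma-D and the 1:50 negative fraction. For Comma-D and the 1:50 positive fraction the share was 37.5%.

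**Figure D1:**
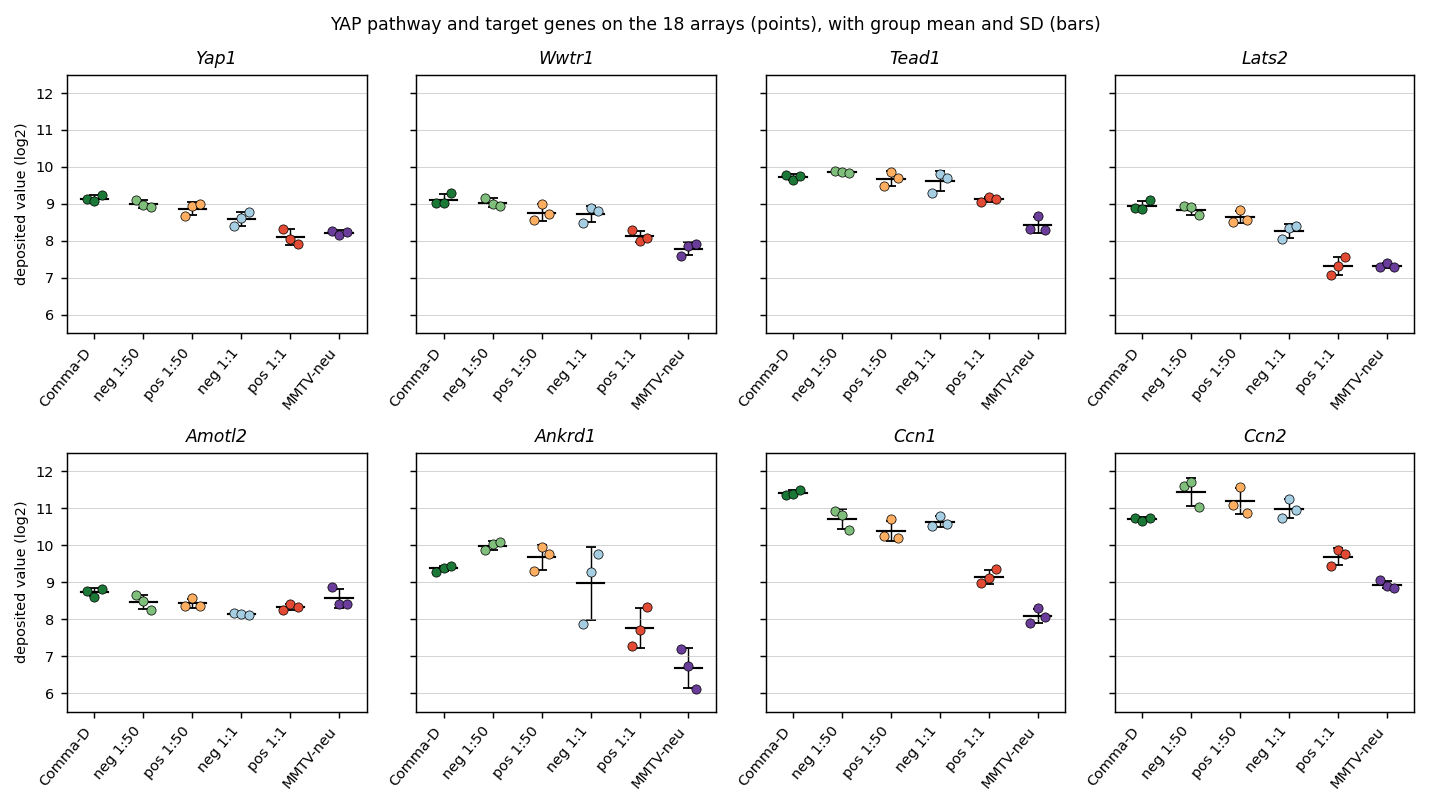
Deposited log2 level (vertical axis) of each of the 8 genes on the 18 arrays (points), by group, with the group mean and SD as bars (3 arrays a group; neg and pos are the erbB2-negative and erbB2-positive fractions). Ccn1 and Ccn2 have the widest ranges of group means apart from Ankrd1, whose MMTV-neu level lies near the array median. Amotl2 stays within 0.58 between group means, and the 1:1 negative Ankrd1 arrays run from 7.86 to 9.75.

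MMTV-neu cells had less transcript of 7 of the 8 members than Comma-D cells on the deposited scale. The lines were grown in different media, which the design does not separate from the line. Ccn1 was 10.1-fold lower (-3.33, SE 0.16, adjusted p = 3.9e-11), Ccn2 3.41-fold (-1.77, SE 0.19) and Lats2 3.08-fold (-1.62, SE 0.13). Ankrd1 was also lower (-2.70, SE 0.37), but its MMTV-neu signal lay near the array median and 1 array lay below it, so no fold is given against MMTV-neu and its difference is not ranked among the members. Wwtr1 (-1.33), Tead1 (-1.30) and Yap1 (-0.92) were lower by amounts near the -1.37 median of genes of like level, and Amotl2 did not pass the test (-0.16, adjusted p = 0.24). Of all genes, 30.4% were called lower in this comparison and 87.2% had no overlap between the arrays, so the count of 7 is set against a wide background. Only the target genes Ankrd1 and Ccn1 were called lower under all 3 scalings, which 8.79% of genes were. Centred, they differed by -1.24 and -1.88, whereas Yap1 turned to 0.54 higher and Amotl2 to 1.30 higher, both called. Quantile normalization left Yap1 at -0.07 and Amotl2 at 0.72. The direction for Yap1, Wwtr1, Tead1 and Amotl2 thus depended on the scaling. Centring shifts an array as a whole and leaves its narrower spread as it was, and the Comma-D level of Ccn1 was at the 99.1 percentile of all genes, so the part of the narrower range in the Ccn1 and Ankrd1 differences was not tested.

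Against MMTV-neu cells alone, the 1:50 positive fraction had more transcript of the same 7 members on the deposited scale. Ccn1 and Ccn2 were furthest apart among those other than Ankrd1. Each fraction also differed from the lines alone in co-culture and bead sorting, and from MMTV-neu in medium. The design does not separate these. Ccn1 was 4.93-fold higher (2.30, SE 0.16), Ankrd1 was higher by a measured 3.001 (SE 0.37, adjusted p = 2.5e-06) over that low signal, and Ccn2 was 4.77-fold higher (2.25, SE 0.19), Lats2 2.49-fold (1.31, SE 0.13) and Tead1 2.38-fold (1.25, SE 0.14). Wwtr1 was 0.98 and Yap1 0.65 higher, and Amotl2 did not pass the test (-0.14, adjusted p = 0.30). No array of one group overlapped the other for these 7, but 81.4% of all genes had no overlap either, and 25.8% were called higher. Under all 3 scalings Ankrd1, Ccn1 and Ccn2 were called higher, as 7.88% of genes were, with centred differences of 1.78, 1.08 and 1.03. When centred, Yap1 turned to -0.57 and Wwtr1 also turned around, and 2 members in all were called lower. Amotl2 was called lower at -1.36 when centred and -0.82 after quantile normalization. This comparison and the one before it share the MMTV-neu arrays. The fraction also had more transcript than MMTV-neu of basal markers typical of Comma-D (mean level of 8 markers 9.97 to 10.43 on its arrays, 7.52 to 7.74 in MMTV-neu and 9.58 to 9.61 in Comma-D), with Vim at 12.85. Of those 8, 6 were called higher, Trp63 was not called (0.77, adjusted p = 0.065) and Myh11 was lower (-1.31), as it was in Comma-D. The part of these markers in the differences was not tested.

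Set beside Comma-D cells alone, the 1:50 positive fraction differed in Ccn1 and in no other member. Ccn1 was 2.05-fold lower (-1.03, SE 0.16, adjusted p = 7.9e-04), where 4.54% of genes were called lower and 1.17% higher. It was called in each of the 6 fits that left out an array of these groups. Quantile normalization gave -0.86 (adjusted p = 0.0052) and centring -0.79 (adjusted p = 0.075). The other 7 members had differences between -0.35 (Wwtr1, adjusted p = 0.15) and 0.48 (Ccn2, adjusted p = 0.15). Without adjustment for the number of genes, the p-values of Yap1, Wwtr1, Lats2, Amotl2 and Ccn2 were also under 0.05, and their arrays did not overlap, as for 37.5% of genes. The 95% intervals, also not adjusted, ran from -0.53 to -0.01 for Yap1, from -0.33 to 0.24 for Tead1 and from -0.48 to 1.09 for Ankrd1. The deposited-scale differences of Yap1, Wwtr1, Lats2 and Amotl2 (-0.35 to -0.27) lay near the median of -0.26 of those 4985 genes, and centring brought them to between -0.11 and -0.03.

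The same erbB2-positive gate gave different levels at the 2 ratios. On the deposited scale, all members except Amotl2 were higher in the 1:50 than in the 1:1 positive fraction. Ankrd1 was 3.75-fold higher (1.91, SE 0.37, adjusted p = 3.2e-04), Ccn2 2.82-fold (1.496, SE 0.19), Lats2 2.49-fold (1.32, SE 0.13) and Ccn1 2.37-fold (1.24, SE 0.16), while Yap1 (0.77), Wwtr1 (0.65) and Tead1 (0.56) were higher by less than the median of 0.92 of those 4985 genes. Amotl2 differed by 0.10 (adjusted p = 0.48) as deposited and was called lower at -0.77 when centred and -0.42 after quantile normalization. Of all genes 27.4% were called higher and 78.7% had no overlap. Lats2, Ankrd1 and Ccn2 kept the call under all 3 scalings (8.42% of genes did), at 0.44, 1.04 and 0.62 when centred, and Ccn1 lost it only when centred (0.37, adjusted p = 0.10). Tead1 turned to -0.31 when centred and -0.10 after quantile normalization, neither called. Yap1 and Wwtr1 also turned around when centred, and neither was called. Vim was also higher in the 1:50 positive fraction (12.85 against 11.83). Of the luminal markers, Krt8 (10.37 against 11.28), Krt19, Foxa1 and Elf5 were called lower and Krt18, Epcam, Cdh1 and Gata3 higher, with list means of 8.47 to 8.54 on the 1:50 and 8.18 to 8.38 on the 1:1 positive arrays. Their part in the result was not tested.

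**Figure D2:**
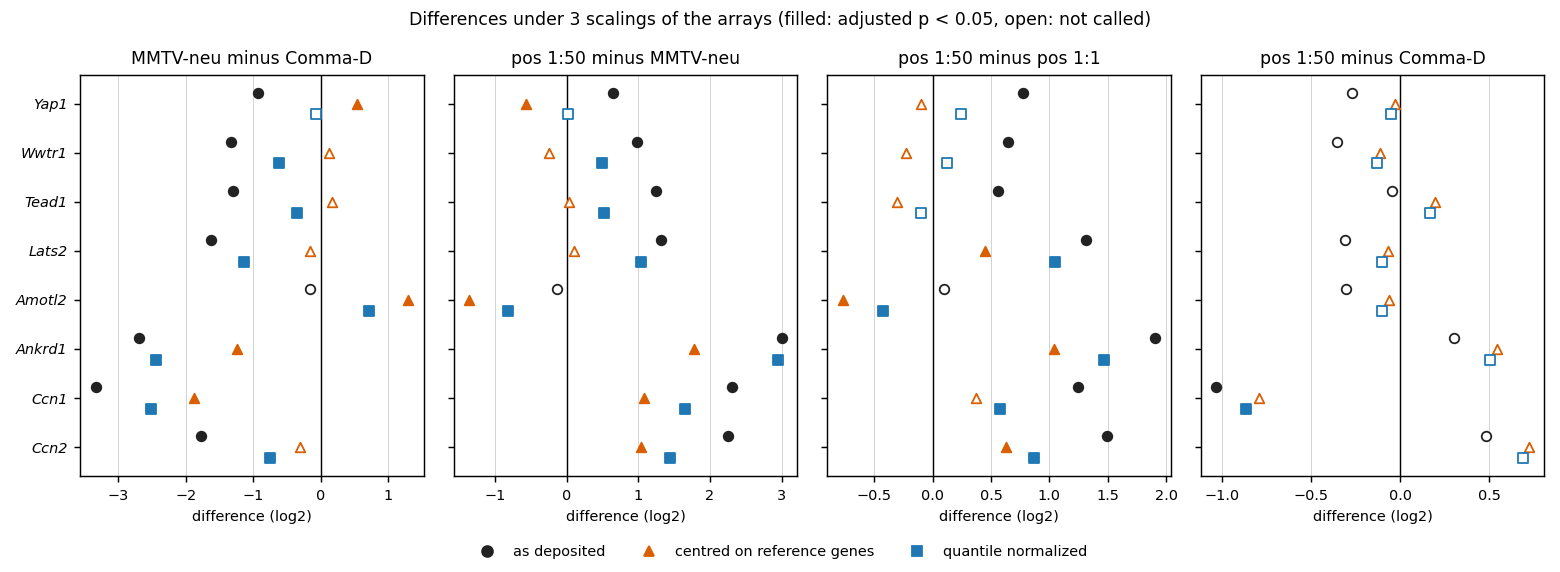
Log2 difference (horizontal axis) of each member in 4 comparisons as deposited (circles), after centring on reference genes (triangles) and after quantile normalization (squares), filled where the adjusted p was under 0.05. Lats2, Ankrd1, Ccn1 and Ccn2 stay on the same side of 0 in the 3 comparisons with MMTV-neu or the 1:1 positive fraction, whereas Yap1 moves from -0.92 to 0.54 and Amotl2 from -0.16 to 1.30 for MMTV-neu minus Comma-D.

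On the deposited scale, the 1:1 positive fraction was called above MMTV-neu for 4 members and below Comma-D for all 8. Against MMTV-neu it was higher for Ccn1 (2.08-fold, 1.06, SE 0.16, adjusted p = 4.4e-04), Tead1 (1.61-fold, 0.69, SE 0.14), Ccn2 (1.69-fold, 0.76, SE 0.19) and Ankrd1 (a measured 1.09 over a signal near the array median, SE 0.37, adjusted p = 0.0496), where 4.21% of genes were called higher. The Ankrd1 call held in 2 and the Ccn2 call in 4 of the 6 fits without an array. Ankrd1 and Ccn1 were called under all 3 scalings, which 2.6% of genes were. Lats2 differed by less than 0.01 from MMTV-neu (adjusted p = 0.99). Against Comma-D all 8 members were lower in this fraction, from -0.41 for Amotl2 to -2.28 for Ccn1 (4.84-fold, SE 0.16, adjusted p = 1.3e-08), with 32.5% of genes called lower. Lats2 (-1.63) and Ccn1 kept that call under all 3 scalings, at -0.52 and -1.16 when centred. Tead1 and Amotl2 turned to called rises of 0.50 and 0.71 when centred and of 0.27 and 0.32 after quantile normalization.

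In the erbB2-negative fractions, which the labels call normal, 1 member was called against Comma-D at 1:50 and 5 at 1:1. In the 1:50 negative fraction Ccn1 alone was called, 1.63-fold lower (-0.70, SE 0.16, adjusted p = 0.032), where 1.08% of genes were called lower. That call held in 1 of the 6 fits without an array, with values from -0.80 to -0.54, and centring left the value at -0.70 but not the call (adjusted p = 0.23). Ccn2 was 0.74 higher (SE 0.19, adjusted p = 0.067) with no overlap of arrays, as for 27.7% of genes, and passed the threshold after quantile normalization (0.79, adjusted p = 0.043). Ankrd1 was called in neither fraction, at 0.62 (adjusted p = 0.79) in the 1:50 and -0.41 (adjusted p = 0.40) in the 1:1 negative fraction. In the 1:1 negative fraction Yap1 (-0.54), Wwtr1 (-0.39), Lats2 (-0.68), Amotl2 (-0.58) and Ccn1 (-0.78, 1.72-fold, SE 0.16) were called lower than Comma-D, with 20.9% of genes. None of the 5 was called when centred and only Ccn1 after quantile normalization (-0.50). Ccn2 went the other way, from 0.28 (adjusted p = 0.25) as deposited to a called 0.75 when centred and 0.60 after quantile normalization. Krt8 was at 10.76 in this fraction, and the part of MMTV-neu cells in these differences was not tested.

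Between the negative fractions, Yap1 (0.39), Lats2 (0.57) and Ankrd1 (1.03) were higher at 1:50, where 21.4% of genes were called higher. Of the 6 fits without an array, 5 called Lats2, 2 called Ankrd1 and 1 called Yap1. Without the first 1:1 negative array, which had the narrowest spread of its group (SD 1.75 against 1.88 and 1.91), none of the 3 was called and the Ankrd1 difference was 0.48. A fit of the compared groups only called none. When the 12 co-culture arrays, whose replicate numbers pair the samples, were fitted alone with the number as a block, Amotl2 (0.32, adjusted p = 0.025) and Ccn2 (0.45, adjusted p = 0.032) were also called, which made 5. None was called under either rescaling.

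**Figure D3:**
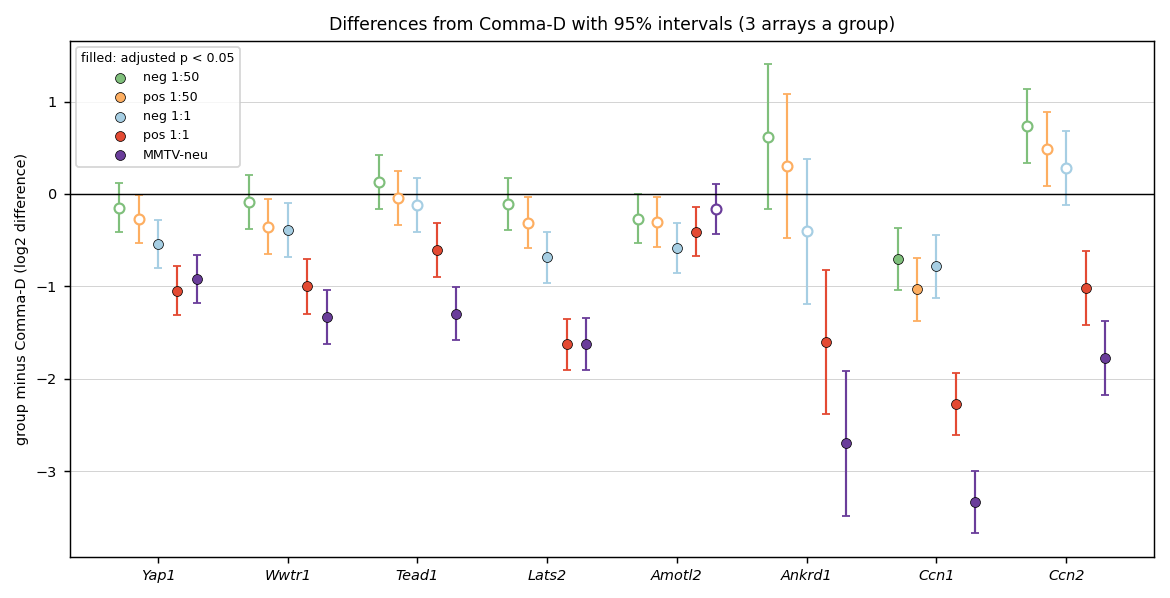
Log2 difference of each group from Comma-D (vertical axis) for the 8 genes, with 95% intervals of the fit and filled points where the adjusted p was under 0.05 (3 arrays a group, deposited scale). Ccn1 is lower than Comma-D in all 5 groups, from -0.70 to -3.33, and Ccn2 lies above Comma-D in 3 fractions without a called difference and below it in the 1:1 positive fraction (-1.01) and MMTV-neu (-1.77).

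Within the 1:50 co-culture no member was called apart between the erbB2-positive and erbB2-negative fractions. The differences, positive minus negative, ran from -0.33 for Ccn1 (95% interval -0.67 to 0.01) and -0.32 for Ankrd1 (-1.10 to 0.46) to -0.04 for Amotl2 (-0.31 to 0.23), and 0.01% of genes, 2 in all, were called. No member had an unadjusted p under 0.05 either, whereas limma with array weights called 4 lower (Wwtr1, Lats2, Ccn1 and Ccn2). Mean levels in the positive and negative fractions were 10.37 and 7.90 for Krt8 and 12.85 and 12.97 for Vim. The share of each line in these bulk fractions was not tested. In the 1:1 co-culture 7 members were lower in the positive fraction. Ccn1 was 2.81-fold lower (-1.49, SE 0.16, adjusted p = 1.0e-05), Ccn2 2.45-fold (-1.30, SE 0.19), Ankrd1 2.29-fold (-1.198, SE 0.37, called in 3 of 6 fits without an array) and Lats2 1.92-fold (-0.94, SE 0.13). Wwtr1 (-0.61), Yap1 (-0.51) and Tead1 (-0.49) were also lower, and Amotl2 was not called (0.18, adjusted p = 0.24), with 21% of all genes called lower. Ccn1 and Ccn2 kept the call under all 3 scalings (6.83% of genes did), at -0.85 and -0.65 when centred. Under both rescalings Amotl2 was called higher in the positive fraction (0.82 and 0.53).

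The effect of the ratio on the positive fraction was larger than on the negative fraction for Ccn1, Ccn2 and Lats2. The difference of differences was 1.16 for Ccn1 (SE 0.23, adjusted p = 0.014), 1.04 for Ccn2 (SE 0.27, adjusted p = 0.047) and 0.74 for Lats2 (SE 0.19, adjusted p = 0.043), where 2.45% of genes were called in that direction. Genes of like level had a median of 0.38, with quartiles of 0.03 and 0.79, a range that holds the Lats2 value. Ankrd1 had 0.88 with a wide interval (-0.23 to 1.99), and Yap1, Wwtr1 and Tead1 had 0.31 to 0.38, not called. A fit of the 4 compared groups only called none (adjusted p = 0.063 for Ccn1, 0.13 for Ccn2 and 0.12 for Lats2). Of the 12 fits that each left out 1 co-culture array, 11 called Ccn1, 4 called Ccn2 and 3 called Lats2. Quantile normalization kept the calls of Ccn1 (0.79) and Lats2 (0.85), and none was called after centring (0.75 for Ccn1, 0.63 for Ccn2 and 0.33 for Lats2).

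Of the paralogues, Ccn1 was called lower than Comma-D in all 5 other groups as deposited, and Ccn2 only in the 1:1 positive fraction and MMTV-neu. The difference Ccn2 minus Ccn1 on the same array does not change when an array is shifted as a whole, and only its change between groups is read here, since levels of different probe sets are not comparable. It does not remove the narrower spread of the MMTV-neu and 1:1 positive arrays, whose part was not tested. It was -0.62, -0.73 and -0.78 on the Comma-D arrays (-0.71 ± 0.08, SD, n = 3). The other 15 arrays lay between 0.23 and 1.16. Group means were 0.73 ± 0.14 in the 1:50 negative and 0.81 ± 0.10 in the 1:50 positive fraction, 0.36 ± 0.12 in the 1:1 negative and 0.55 ± 0.18 in the 1:1 positive fraction, and 0.85 ± 0.28 in MMTV-neu (SD, n = 3 each). All 15 arrays were thus above all 3 Comma-D arrays, by 1.07 to 1.56 between means. With 3 arrays against 3, the exact two-sided permutation test gave p = 0.1 for each of the 5 groups, which is the smallest it can give, and 0.1 after adjustment. Fos, an immediate early gene that serum and handling can induce, was also highest in Comma-D, at a mean of 10.41. In the other groups Fos means lay between 8.34 and 8.83, where those of Ccn1 ran from 8.08 to 10.72. Of 16 immediate early and heat shock genes measured, 0 were called higher and 9 lower in the 1:50 positive fraction than in Comma-D, where 1.17% of all genes were called higher and 4.54% lower (median -0.75, against 0.01 for all genes). The mean level of the list was 9.54 to 9.61 on the Comma-D arrays, 8.68 to 8.97 in the 1:50 negative, 8.30 to 8.89 in the 1:50 positive, 8.26 to 8.85 in the 1:1 negative and 7.77 to 8.06 in the 1:1 positive fraction. Its part in the lower Ccn1 of the fractions was not tested.

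**Figure D4:**
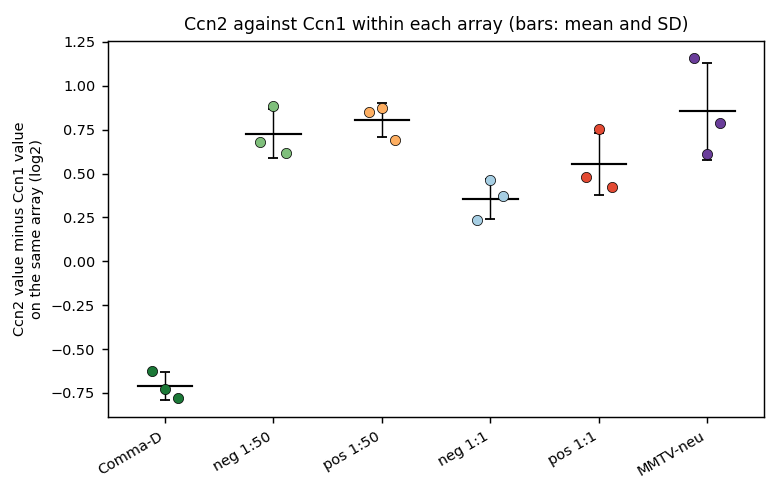
Ccn2 level minus Ccn1 level on the same array (vertical axis, log2) for the 18 arrays (points) by group, with the mean and SD as bars. The 3 Comma-D arrays lie at -0.78 to -0.62 and the other 15 at 0.23 to 1.16, and only this change between groups is read, not the sign.

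Other genes of the pathway were counted in 4 lists. Of 13 other genes of the kinase cascade, 10 were lower and 3 higher in MMTV-neu than in Comma-D, where 30.4% of all genes were called lower and 56.4% higher, with a median of -1.32 (0.40 for all genes) that turned to 0.14 when centred and was -0.40 after quantile normalization. The 4985 genes of highest Comma-D level had a median of -1.37, and the list was not matched for level. Wwc2, of the KIBRA family of Hippo activators, differed by -2.37 and Lats1, the partner kinase of Lats2, by -2.03, both called under all 3 scalings, whereas Taok3, a kinase upstream in the cascade, was 0.72 higher in MMTV-neu. Wwc2 and Lats1 were among those 4985 genes (9.10 and 9.66 in Comma-D), and Taok3 was not (7.42). In the 1:50 positive fraction 8 of the 13 were higher and 1 lower than in MMTV-neu, where 25.8% of all genes were called higher and 57.6% lower (Wwc2 by 2.35 and Lats1 by 1.93, with Taok3 at -0.59), 11 were higher and 1 lower than in the 1:1 positive fraction (Lats1 by 1.84), where 27.4% of all genes were called higher and 44% lower, and none was called by limma against Comma-D, where 3 had an unadjusted p under 0.05, all lower.

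Junction and polarity regulators divided. Of 13, 7 were lower and 4 higher in MMTV-neu than in Comma-D, against 30.4% and 56.4% of all genes (median -0.36, 1.10 when centred and -0.06 after quantile normalization). The giant cadherin genes Fat1 and Fat4 differed by -2.90 and -2.43, while Dchs1, which encodes the cadherin partner of FAT4, and Wtip, of the Ajuba family of LATS-binding LIM proteins, were 1.10 and 1.00 higher, all 4 under all 3 scalings, as 41.7% of all genes were higher there. The mean levels of Dchs1 were low, 5.55 in Comma-D and 6.64 in MMTV-neu, and Fat4 in MMTV-neu, at 6.41, was under the mean array median of 6.46. In the 1:50 positive fraction Fat1 was 3.05 and Fat4 1.79 higher than in MMTV-neu, with Dchs1 at -1.03, and 7 of the list were higher and 4 lower, against 25.8% and 57.6% of all genes. Against Comma-D, where 1.17% of all genes were called higher and 4.54% lower, 1 was higher (Wtip, 0.58) and 2 lower (Fat4, -0.64 and Rassf1, -0.38), none of them called under either rescaling. Against the 1:1 positive fraction 7 were higher and 4 lower (27.4% and 44% of all genes), with Fat1 at 1.90, Fat4 at 1.503, Dchs1 at -0.79 and the apical polarity gene Crb3 at -0.54.

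Among 7 other TEAD factors and TEAD cofactors, 3 were lower and 2 higher in MMTV-neu than in Comma-D, where 30.4% of all genes were called lower and 56.4% higher (median -0.20, 1.26 when centred and 0.30 after quantile normalization). The vestigial-like cofactors, which bind TEAD factors, made up 4 of these 5 calls, and Tead2 (-0.39) was the other. Vgll3 differed by -2.93 and Vgll4 by -1.65, and Vgll2 and Vgll1 were 1.52 and 0.77 higher. Vgll1 was at 5.62 in Comma-D and 6.39 in MMTV-neu, under the mean array medians of 6.03 and 6.46. Vgll3 was also under that median in MMTV-neu, at 6.12. The 4984 genes of like Comma-D level to Vgll1 and Vgll2 had a median difference of 0.95. The Vgll4 difference was -0.19 when centred and not called. In the 1:50 positive fraction Vgll3 was 2.81 and Vgll4 1.60 higher than in MMTV-neu, with Vgll2 at -1.07 and Vgll1 at -0.57, so 4 of the 7 were called higher and 2 lower (25.8% and 57.6% of all genes). The same count was found against the 1:1 positive fraction (27.4% and 44% of all genes), where Vgll3 was 1.86 and Vgll4 1.47 higher. None of the 7 was called by limma against Comma-D, where 1 had an unadjusted p under 0.05.

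The 17 other YAP target genes measured were mostly lower in MMTV-neu than in Comma-D, with 14 lower and 2 higher, against 30.4% and 56.4% of all genes (median -1.13, 0.33 when centred and -0.74 after quantile normalization). The 4985 genes of highest Comma-D level had a median of -1.37, and this list was not matched for level. Axl, a receptor tyrosine kinase, differed by -3.94 and Crim1, a transmembrane regulator of BMP signals, by -3.57, each larger than the Ccn1 difference and called under all 3 scalings, while Igfbp3, an IGF-binding protein gene, was 1.07 and Fjx1 0.81 higher. The MMTV-neu level of Axl, 6.60, lay near the mean array median of 6.46. The levels of Fjx1 were low, 5.06 in Comma-D and 5.88 in MMTV-neu, and the 4985 genes of lowest Comma-D level had a median difference of 0.61. The 1:50 positive fraction had 12 of the 17 higher and 2 lower than MMTV-neu (25.8% and 57.6% of all genes), led by Axl (3.65) and Crim1 (3.36), with Fjx1 at -0.52 and Gadd45a at -0.42. It had 13 higher and 0 lower than the 1:1 positive fraction (27.4% and 44% of all genes), led by Tgfb2 (2.25) and Nt5e (1.91), while the median turned from 0.84 to -0.03 when centred and was 0.63 after quantile normalization. Against Comma-D, where 1.17% of all genes were called higher and 4.54% lower, 1 was higher (Igfbp3, 1.36, adjusted p = 1.2e-04, called under all 3 scalings, as were 0.221% of genes) and 5 were lower. The tissue factor gene F3 led these (-1.28, adjusted p = 3.5e-05, called under all 3 scalings, as were 0.466% of genes), followed by Ccdc80 (-0.90, called as deposited only). The list median was -0.19.

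**Figure D5:**
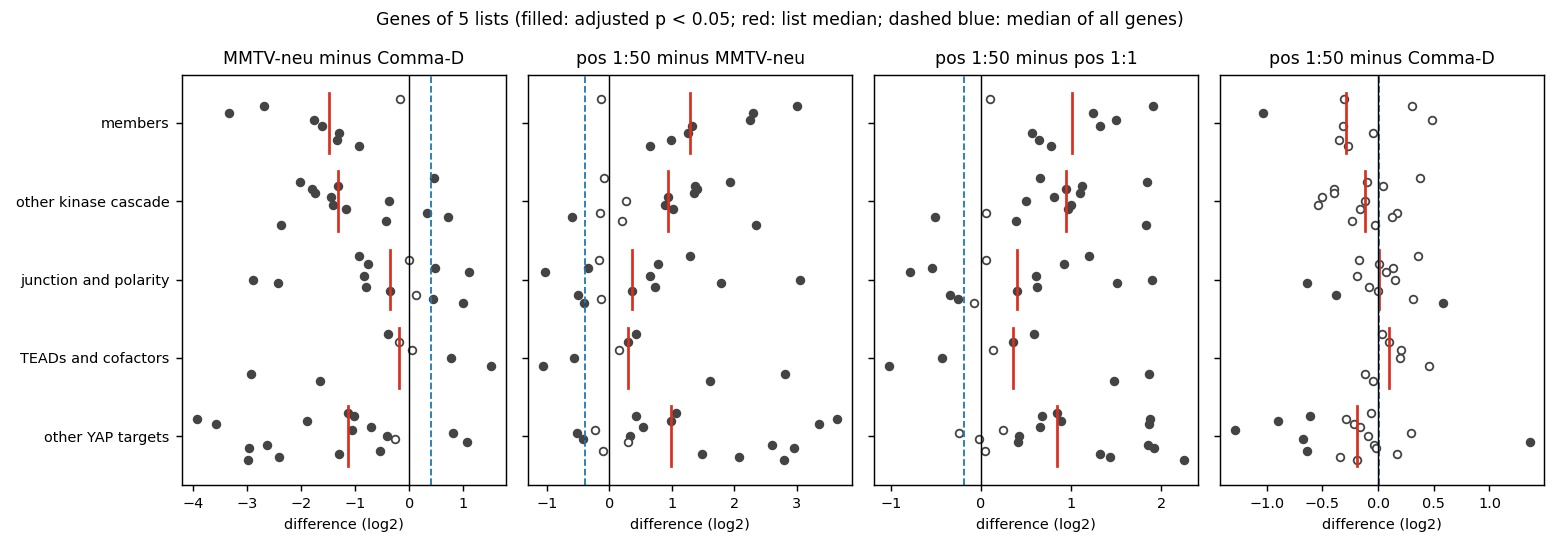
Log2 difference (horizontal axis) of every measured gene of 5 lists in 4 comparisons (points, filled where the adjusted p was under 0.05), with the list median as a red line and the median of all 19938 genes as a dashed line. The members and the other YAP targets lie mostly to the left for MMTV-neu minus Comma-D (medians -1.48 and -1.13) and to the right for the 1:50 positive fraction minus MMTV-neu (1.28 and 0.99), and against Comma-D the medians of both are -0.29 and -0.19.

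Likeness of pattern was measured as the root mean square distance between the 6 centred group means, over 18707 genes. The genes nearest to Yap1 were Arf1 (0.03), Hsd17b4 and Rabgap1l, and those nearest to Wwtr1 were Pon2 (0.03), Erp44 and Trip10. Nearest to Tead1 were Cfl1 (0.04), H2ac15 and Bace1, to Lats2 Appbp2 (0.03), Mocs1 and Ecpas, and to Amotl2 Ralgapa2 (0.05), Cln8 and Plagl2. Ankrd1, Ccn1 and Ccn2 had more distant neighbours, but the distance was not scaled by range and the measured ranges of these genes were wide. Ankrd1 was nearest to Serpinb5 (0.06), Fdft1 and Plpp2, Ccn1 to Gstm1 (0.10), Shc1 and Errfi1, and Ccn2 to Snai2 (0.08), Sdc3 and Tuba1a.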

How the data were processed

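Total RNA of 18 cultures or bead-sorted fractions was labelled with biotin and hybridised to a mouse gene array, per the labels. The deposited values are log2 signals, and the submitters' processing notes name RMA, R 3.1.2 and limma, with no role or order. Array platform annotation named 23410 of 35556 probe sets, 21789 with 1 gene symbol and 1621 with several, which were left out, so 19938 genes were tested with the probe set of highest mean each. limma 3.58.1 (R 4.3.3) fitted the 6 groups together (lmFit, eBayes, 12 residual degrees of freedom). P-values were adjusted across the 19938 genes of each comparison by the Benjamini-Hochberg method, and values under 0.05 were called. The script was tested on simulated data. The 3 arrays a group limit the precision. Beyond the members, up to 2 called rises and 2 called falls per list and main comparison were named, with the 3 most alike genes per member and Erbb2, Actb, Vim, Krt8, Krt14 and Fos as checks. Members and lists were chosen with earlier results of these data known. Centring used 10 of 11 listed reference genes. Same-numbered arrays deviated together (r over 0.1 in every pair) in the 4 comparisons among co-culture fractions and in no comparison with a line cultured alone. Alternatives left out the lowest 40% of genes, averaged probe sets, changed scaling, priors, weights or arrays, or blocked on the replicate number.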

Additional observations from a re-analysis of the deposited data

Results flagged for a closer look

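For 3 members the effect of the co-culture ratio differed between the erbB2-positive and the erbB2-negative fraction by a test of the difference itself. The difference between the 1:50 and 1:1 fractions was larger on the positive side by 1.16 for Ccn1, 1.04 for Ccn2 and 0.74 for Lats2 on the deposited log2 scale. None of the 3 was called after centring on reference genes or in a fit of the compared groups only, and Lats2 and Ccn2 lost their call in most fits that left out 1 array.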

How the results depend on the processing

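Of 96 differences of a member in a comparison, 53 were called as deposited and 42 of those were called in every fit without an array. Averaging probe sets and the other Tead1 probe set changed no call or direction, and leaving out the lowest 40% of genes ended 1 call. The replicate block changed 2 calls and, in the 12 co-culture arrays, 2 others, and no other call of a member. Scaling mattered most: centring turned 36 of the 96 around and ended 20 calls, and quantile normalization turned 16 around and ended 16. The cause of these shifts was not tested. Signal near the array median limits Ankrd1 in MMTV-neu.

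Turned around when centred on reference genes, for MMTV-neu minus Comma-D, were Yap1 (0.54), Wwtr1 (0.13), Tead1 (0.16) and Amotl2 (1.30). For 1:50 positive minus MMTV-neu they were Yap1 (-0.57) and Wwtr1 (-0.24), for 1:50 positive minus Comma-D Tead1 (0.20), and for 1:50 positive minus 1:1 positive Yap1 (-0.098), Wwtr1 (-0.23), Tead1 (-0.31) and Amotl2 (-0.77). For 1:1 positive minus MMTV-neu it was Wwtr1 (-0.0159), and minus Comma-D Yap1 (0.0667), Wwtr1 (0.11), Tead1 (0.50), Amotl2 (0.71) and Ccn2 (0.098). For 1:1 negative minus Comma-D they were Wwtr1 (0.0789), Tead1 (0.35) and Ankrd1 (0.0606). Between the negative fractions they were Yap1 (-0.0714), Wwtr1 (-0.16), Tead1 (-0.21), Amotl2 (-0.15), Ccn1 (-0.38) and Ccn2 (-0.00850). Positive minus negative they were, at 1:50, Yap1 (0.11), Tead1 (0.0646), Lats2 (0.0362) and Amotl2 (0.20), at 1:1, Yap1 (0.14), Wwtr1 (0.0337) and Tead1 (0.16), and in the difference of differences Yap1 (-0.0265), Wwtr1 (-0.0655) and Tead1 (-0.0937).

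After quantile normalization Amotl2 turned around for MMTV-neu minus Comma-D (0.72), 1:50 minus 1:1 positive (-0.42), 1:1 positive minus Comma-D (0.32), between the negative fractions (-0.0243) and between the 1:50 fractions (0.13). Tead1 did for 1:50 positive minus Comma-D (0.17), 1:50 minus 1:1 positive (-0.0959), 1:1 positive minus Comma-D (0.27), 1:1 negative minus Comma-D (0.26), between the negative fractions (-0.13), between the 1:50 fractions (0.0404) and between the 1:1 fractions (0.00853). Yap1 did between the 1:50 fractions (0.0673), Wwtr1 for 1:1 negative minus Comma-D (0.00662) and between the negative fractions (-0.0688), and Ccn1 between the negative fractions (-0.22). With array weights Tead1 for 1:1 negative minus Comma-D (0.0735), Lats2 for 1:1 positive minus MMTV-neu (0.00594) and Ccn1 between the negative fractions (-0.0384) turned around.

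Counts of members called moved when centred to 2 higher and 2 lower (MMTV-neu minus Comma-D), 3 and 2 (1:50 positive minus MMTV-neu), 0 lower (minus Comma-D), 3 and 1 (minus 1:1 positive), 2 and 1 (1:1 positive minus MMTV-neu), 2 and 2 (minus Comma-D), 0 lower (1:50 negative minus Comma-D), 1 and 0 (1:1 negative minus Comma-D), 0 (between the negative fractions), 1 and 3 (between the 1:1 fractions) and 0 (difference of differences). After quantile normalization the moved counts in those comparisons were 1 higher, 1 lower, 4 and 1 (1:50 minus 1:1 positive), 2 and 4 (1:1 positive minus Comma-D), 1 higher (1:50 negative), 1 and 1 (1:1 negative), 0 (between the negative fractions) and 1 and 3 (between the 1:1 fractions). With array weights they were 1 and 4 (1:50 positive minus Comma-D), 2 higher (1:50 negative minus Comma-D), 1 higher (1:1 negative minus Comma-D), 4 lower (between the 1:50 fractions), 1 higher (between the 1:1 fractions) and 7 and 1 (difference of differences). Fitting the compared groups only gave 2 higher (1:50 negative minus Comma-D), 0 (between the negative fractions) and 0 (difference of differences), and the last was 1 without the MMTV-neu arrays (chosen after seeing the data) and 1 with trend and robust priors. The replicate block gave 1 higher for 1:50 negative minus Comma-D, and 5 between the negative fractions in the 12 co-culture arrays (also chosen after seeing the data).

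For the lists of kinase cascade, junction, TEAD and target genes, centred counts were 5 and 2, 11 and 2, 5 and 1, and 7 and 6 (MMTV-neu minus Comma-D), 2 and 5, 2 and 9, 1 and 5, and 6 and 8 (1:50 positive minus MMTV-neu), and 2 and 3, 2 and 7, 2 and 4, and 7 and 4 (minus 1:1 positive), with 0 and 0 junction genes and 1 lower target gene against Comma-D. Quantile normalization gave 4 lower (minus MMTV-neu) and 7 and 2 (minus 1:1 positive) of the kinase cascade, 0 and 0 junction genes against Comma-D, 5, 2 and 2 higher TEAD genes (MMTV-neu minus Comma-D and the 1:50 positive fraction minus MMTV-neu and minus 1:1 positive), and 3 lower (against Comma-D) and 1 lower (minus 1:1 positive) target genes. Against Comma-D, array weights gave 1 and 4 kinase cascade, 3 higher junction and 2 higher TEAD genes, compared groups only 3 lower kinase cascade genes, the replicate block 2 lower kinase cascade and 1 higher TEAD gene, the fit without MMTV-neu 1 lower junction gene and trend and robust priors 0. Array weights gave 1 lower target gene minus MMTV-neu and 1 minus 1:1 positive, as the block in 12 arrays did for the latter. Leaving out the lowest 40% of genes gave 2 lower junction genes (minus 1:1 positive), 1 higher and 1 and 1 lower TEAD genes and 1 higher and 1 lower target gene.

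Leaving out an array gave 2 to 4 members higher (1:1 positive minus MMTV-neu), 0 to 1 higher and 0 to 1 lower (1:50 negative minus Comma-D), 0 to 3 (between the negative fractions) and 0 to 4 (difference of differences). The list counts ran from 1 to 3 higher (kinase cascade, MMTV-neu minus Comma-D), 1 to 2 lower (kinase cascade), 2 to 4 lower (junction) and 1 to 2 lower (targets) for 1:50 positive minus MMTV-neu, and against Comma-D from 0 to 2 lower (kinase cascade), 0 to 1 higher and 0 to 2 lower (junction), 0 to 1 higher (TEAD) and 3 to 5 lower (targets). Values crossed 0 for Wwtr1 in 1:50 negative minus Comma-D (-0.15 to 0.00174), Tead1 in 1:50 positive (-0.14 to 0.0599) and 1:1 negative minus Comma-D (-0.22 to 0.0342), Lats2 in 1:1 positive minus MMTV-neu (-0.12 to 0.12), Amotl2 in 1:50 positive minus MMTV-neu (-0.22 to 0.00705) and between the 1:50 fractions (-0.14 to 0.0546), Ankrd1 in 1:1 negative minus Comma-D (-0.80 to 0.14) and Ccn1 between the negative fractions (-0.0184 to 0.24).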
